A study of Mus musculus with 12 samples.

Results

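The genes described here are 36 genes of fatty acid and ketone body oxidation, measured by RNA sequencing of the developing mouse heart at 4 embryonic stages. They were chosen by name, and each name matched a gene interval of the deposited count table, so all 36 were found among 48709 intervals. All 36 also had enough counts to be tested, among 28846 genes that did. They cover the whole route of a fatty acid, and in the order used below they are transcriptional regulators, uptake and activation genes, the carnitine shuttle, the enzymes of mitochondrial β-oxidation, the electron transfer chain that serves them, gates on fuel choice, and ketone body enzymes.

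Cells of the adult heart take most of their energy from fatty acids. A fatty acid enters the cell, is joined to coenzyme A, crosses the mitochondrial membranes as a carnitine ester and is then shortened in a repeating cycle of dehydrogenation, hydration, a further dehydrogenation and thiolysis. Ketone bodies reach the same acetyl-CoA by a shorter path. The receptor PPARα, encoded by Ppara, and the receptor ERRα, encoded by Esrra, bind the promoters of many of these genes with the coactivators encoded by Ppargc1a and Ppargc1b, and the fetal heart is known to rely more on glucose and lactate than the heart after birth.

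Total RNA was sequenced from the cardiogenic region of mouse embryos (E, embryonic day), E8 and E8.5 being the early stages and E9.5 and E14 the later ones, with 3 libraries at each stage and 12 in all. Strain, sex and any pooling of embryos are not stated in the labels, which also do not say whether the 3 libraries of a stage came from separate litters, so p-values measure the spread between these libraries, which may be technical. Each library held between 56574386 and 122785175 counts, of which small structural RNAs made up 16.6% to 24.1%, and the 36 genes together held 0.0766% to 0.281%. Levels are given as counts per 1000000 (CPM), scaled by library factors that ranged from 0.913 to 1.07. A CPM value depends on the length of the gene, so levels are compared here between stages and not between genes. Stages are compared with edgeR's quasi-likelihood test, and a gene is called where the Benjamini-Hochberg adjusted p over all 28846 genes was under 0.05. Replicate 3 of E8.5 stood apart from the other 2 of its stage: 12 markers of visceral endoderm and liver summed to 1760 CPM there, against 163 and 61.3 CPM in replicates 1 and 2. Calls of the 36 genes that changed without that library are given with and without it. Counts and sums of marker lists include it.

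3 stretches of promoter are shown, for a pair of neighbouring genes, for the gene with the largest fold change and for a coactivator gene. Hadha and Hadhb encode the subunits of the mitochondrial trifunctional protein and are transcribed away from each other, and the stretch shown is the 85 bases between their intervals in the count table (plus strand, chr5:30155163-30155247), read from the RefSeq window of Hadhb. For Cpt1a, which had the largest fold change, the 100 bases before the RefSeq start are shown (plus strand, chr19:3323201-3323300). For Ppargc1a, whose stretch held the fewest CG dinucleotides of the 3, the 100 bases before the RefSeq start are shown (minus strand, chr5:51567726-51567825). The sequences are those of RefSeq on GRCm38.p6, written 5′ to 3′ in the direction of transcription of the gene named, or of Hadhb for the shared stretch, with CG dinucleotides in capitals.
Hadha-Hadhb: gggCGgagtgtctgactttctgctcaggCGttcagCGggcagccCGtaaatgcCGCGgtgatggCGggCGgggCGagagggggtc
Cpt1a: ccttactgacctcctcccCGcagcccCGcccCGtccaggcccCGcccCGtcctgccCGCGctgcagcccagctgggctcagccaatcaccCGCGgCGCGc
Ppargc1a: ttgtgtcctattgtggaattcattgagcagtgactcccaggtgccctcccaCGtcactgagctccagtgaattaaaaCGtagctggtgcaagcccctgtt

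The shared stretch of Hadha and Hadhb held 9 CG dinucleotides and the Cpt1a stretch 11, whereas the Ppargc1a stretch held 2. In full windows of 300 bases (250 before and 50 after a RefSeq start), 30 of the 36 genes had 34 windows, with a median of 16.5 CG dinucleotides, against a median of 7 in all 32851 windows. Acadl had 34 and Ppara 30, at the high end, while Cd36 had 3 and Ppargc1a 5. The quartiles of all windows were 3 and 20, so the median of the members lay between them. The extended receptor site TNAAGGTCA, searched on both strands, was in 0 of the 34 windows and in 1.28% of all windows. The direct repeat of AGGTCA with a spacer of 1 base (DR1), searched likewise and able to overlap the other motif, was in 0 of the 34 windows and in 0.0396% of all windows. At such low shares, 0 of 34 windows does not show that these genes lack the sites, and 6 members had no window.

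No member passed the test between E8 and E8.5, most rose at E9.5 and most rose again at E14. Their summed level was 829 to 853 CPM in the E8 libraries, 771 to 934 CPM at E8.5, 1168 to 1434 CPM at E9.5 and 2821 to 3014 CPM at E14, so that only the E8 and E8.5 libraries overlapped. At E8.5 against E8, edgeR called 0 of 36 members higher and 0 lower, where 0.891% of all genes tested were called higher and 0.291% lower. At E9.5 against E8.5, 28 members were higher and 1 was lower, where 18.4% of all genes were called higher and 18.5% lower. Without replicate 3 of E8.5, 29 were higher and 2 lower, and the shares of all genes were not computed for that fit. At E14 against E9.5, 32 members were higher and 0 lower, where 25.4% of all genes were called higher and 24.6% lower. Over the whole span, E14 against E8, 34 members were higher and 0 lower, where 31.5% of all genes were called higher and 29.2% lower. No member was lower at an unadjusted p under 0.05 at E14 in either comparison, and DESeq2 also called 0 lower. The median log2 fold change of the members was -0.04, 0.73, 0.95 and 1.61 in these 4 comparisons, beside medians over all tested genes of 0.02, -0.03, 0.01 and 0.04. The comparisons share stages, so they are not independent of each other. In a bulk sample, fewer cells of a type and less RNA per cell cannot be told apart.

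For 33 of the 36 members, all 3 E14 libraries lay above all 9 earlier libraries, as they did for 22.3% of all genes tested, and the exceptions were Ppargc1b, Ucp3 and Bdh1. The stage mean was highest at E14 for 35 members and at E9.5 for 1, Bdh1. Within stages, replicate 1 of E9.5 was the lowest of its stage for 29 members, and replicate 1 of E8.5 was the highest of its stage for 26.

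**Figure D1:**
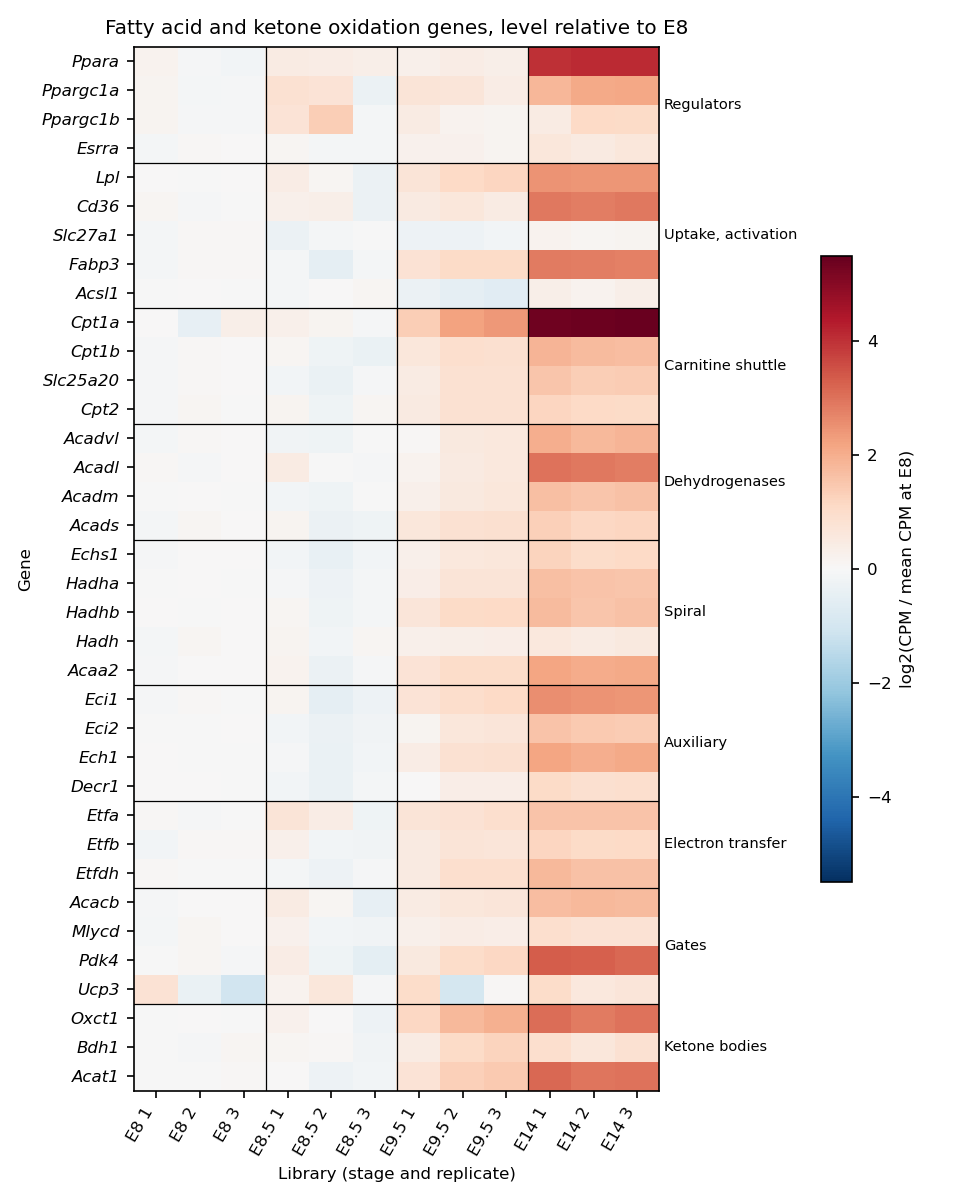
Level of each of the 36 genes in each of the 12 libraries, as log2 of CPM over the mean CPM at E8 (colour), with genes grouped by role and libraries in stage order. The E8 and E8.5 columns are pale, the E9.5 columns are faintly red for most genes, and the 3 E14 columns are the reddest for most genes and palest for Slc27a1, Acsl1, Esrra and Hadh.

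Among the regulators, Ppara stood out by the size of its change at E14. It encodes the fatty acid receptor PPARα, and its interval lies at chr15:85734983-85802819 on the plus strand of GRCm38. Ppara had 0.602, 0.498 and 0.479 CPM in the E8 libraries, 0.722, 0.693 and 0.660 CPM at E8.5, 0.630, 0.691 and 0.651 CPM at E9.5, and 8.49, 9.10 and 9.11 CPM at E14. It was low in all 9 libraries before E14, and no E14 library overlapped them. Ppara was 13.5-fold higher at E14 than at E9.5 (log2 fold change 3.76 ± 0.13 SE, edgeR adjusted p = 3.18e-09), the largest log2 fold change of the 36 genes in that comparison. The change at E9.5 against E8.5 was -0.07 ± 0.13 on the log2 scale and was not called.

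Ppargc1a encodes the coactivator best known for driving mitochondrial genes in muscle and brown fat. It had 31.9, 27.3 and 27.9 CPM at E8, 51.4, 49.3 and 23.3 CPM at E8.5, 47.8, 45.6 and 38.8 CPM at E9.5, and 104, 122 and 126 CPM at E14. The E14 libraries were above all others, and the low value at E8.5 was that of replicate 3. Ppargc1a was higher at E14 than at E9.5 by 1.41 ± 0.24 on the log2 scale (edgeR adjusted p = 0.000447). Its change at E9.5 against E8.5 was 0.09 ± 0.23, and without replicate 3 of E8.5 it was -0.16 with an edgeR adjusted p of 0.237.

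Ppargc1b, the related coactivator, had 28.3, 24.3 and 24.1 CPM at E8, 42.5, 65.0 and 23.6 CPM at E8.5, 35.5, 29.2 and 28.8 CPM at E9.5, and 35.0, 54.5 and 52.8 CPM at E14. Its highest single value was at E8.5 and its E14 libraries overlapped both E8.5 and E9.5. Ppargc1b was not called at E14 against E9.5 (log2 fold change 0.61 ± 0.30, edgeR adjusted p = 0.111), but was called there without E8.5 replicate 2 (0.0435) or E8.5 replicate 3 (0.0291). At E9.5 against E8.5 it was -0.49 ± 0.29 and not called, and without E8.5 replicate 3 it was called lower (-0.76, edgeR adjusted p = 0.0166). It was called at E14 against E8 (0.89 ± 0.30, edgeR adjusted p = 0.0225), and that call was lost without E8 replicate 2 (0.0649), E8 replicate 3 (0.0659), E14 replicate 2 (0.0790) or E14 replicate 3 (0.0720), each an edgeR adjusted p. The log2 ratio of Ppargc1a to Ppargc1b averaged 1.33 ± 0.21 at E14, against 0.50 ± 0.12 at E9.5 and 0.18 ± 0.02 at E8 (SD, n = 3 libraries each). The difference between E14 and E8 was 1.15, with an exact two-sided permutation p of 0.1, the smallest that 3 libraries against 3 can give, and 0.16 after adjustment over the 16 ratio tests made.

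Esrra, the gene of the receptor ERRα, moved least of the called regulators. It had 25.1, 27.6 and 27.5 CPM at E8, 28.9, 24.8 and 24.6 CPM at E8.5, 31.8, 31.8 and 29.3 CPM at E9.5, and 41.3, 37.3 and 41.2 CPM at E14. The E14 libraries did not overlap any earlier stage. Esrra was higher by 0.37 ± 0.08 on the log2 scale at E14 against E9.5 (edgeR adjusted p = 0.00278) and by 0.25 ± 0.08 at E9.5 against E8.5 (edgeR adjusted p = 0.0331). The call at E9.5 was lost without E8.5 replicate 2 (edgeR adjusted p = 0.101), E9.5 replicate 1 (0.0831) or E9.5 replicate 2 (0.108). Between E9.5 and E14, therefore, Ppara and Ppargc1a were higher by more than 1 log2 unit, Esrra by less, and Ppargc1b was not called.

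**Figure D2:**
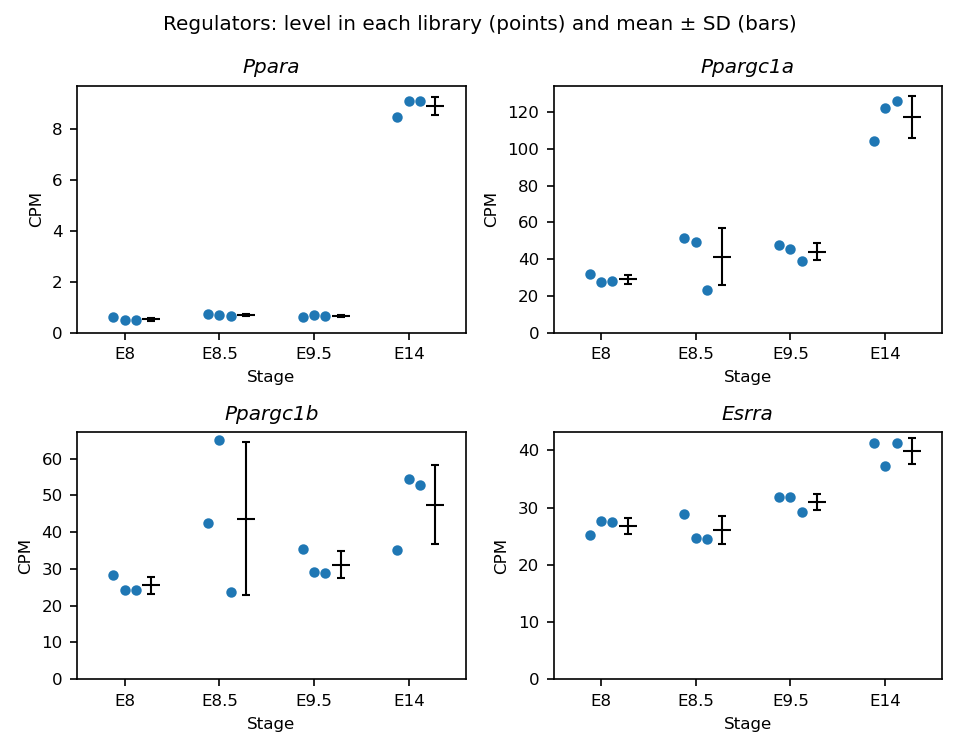
CPM of the regulators Ppara, Ppargc1a, Ppargc1b and Esrra in each library (points) by stage, with the mean and SD of the 3 libraries (bars). Ppara lies under 1 CPM in the 9 libraries before E14 and between 8.49 and 9.11 CPM at E14, while the E8.5 libraries of Ppargc1a and Ppargc1b are widely spread.

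The uptake and activation genes did not move as a block. Lpl encodes lipoprotein lipase, which frees fatty acids from circulating triglyceride. It had 24.0, 22.9 and 23.5 CPM at E8, 31.4, 25 and 18.6 CPM at E8.5, 38.1, 50.3 and 53.9 CPM at E9.5, and 129, 128 and 126 CPM at E14. Lpl was higher at both later intervals, by 0.92 ± 0.16 at E9.5 against E8.5 (edgeR adjusted p = 0.00152) and by 1.42 ± 0.17 at E14 against E9.5 (edgeR adjusted p = 2.39e-05) on the log2 scale.

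Cd36, the gene of the main fatty acid translocase of the heart, had 15.3, 13.8 and 14 CPM at E8, 17.3, 18.2 and 11.5 CPM at E8.5, 20.2, 22.0 and 19.9 CPM at E9.5, and 107, 99.6 and 108 CPM at E14. Its 9 earlier libraries stayed under the E14 libraries with a wide gap. Cd36 was 5.07-fold higher at E14 than at E9.5 (log2 fold change 2.34 ± 0.14, edgeR adjusted p = 1.51e-07). The smaller change at E9.5 against E8.5 was 0.40 ± 0.14 with an edgeR adjusted p of 0.0385, and that call was lost without E8 replicate 2 (0.0524), E8 replicate 3 (0.0534), E9.5 replicate 1 (0.0629), E9.5 replicate 2 (0.122) or E9.5 replicate 3 (0.0705).

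Fabp3, which encodes the fatty acid binding protein of heart muscle cytoplasm, had 20.0, 22.1 and 22.1 CPM at E8, 20.0, 15.2 and 19.7 CPM at E8.5, 36.8, 44.6 and 43.9 CPM at E9.5, and 155, 153 and 148 CPM at E14. Both later stages were separated from the stage before. Fabp3 was higher by 1.19 ± 0.11 at E9.5 against E8.5 (edgeR adjusted p = 4.63e-05) and by 1.86 ± 0.11 at E14 against E9.5 (edgeR adjusted p = 1.27e-07) on the log2 scale.

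Acsl1 encodes the acyl-CoA synthetase that activates most long-chain fatty acids in the heart. It had 45.9, 46.3 and 45.7 CPM at E8, 43.1, 46.0 and 50.2 CPM at E8.5, 36.4, 33.0 and 30.2 CPM at E9.5, and 57.4, 53.3 and 57.1 CPM at E14. Its E9.5 libraries were below and its E14 libraries above all others. With all 12 libraries, Acsl1 was the only member called lower in any of the 4 stage comparisons, by -0.48 ± 0.08 at E9.5 against E8.5 (edgeR adjusted p = 0.00105), and it was higher by 0.75 ± 0.08 at E14 against E9.5 (edgeR adjusted p = 1.26e-05). At E14 against E8 it was higher by 0.28 ± 0.08 (edgeR adjusted p = 0.00931), a call that was lost without E14 replicate 1 (0.0674) or E14 replicate 3 (0.0647).

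Slc27a1, a fatty acid transport protein, stayed between 4.21 and 6.08 CPM in all 12 libraries. Slc27a1 was higher at E14 than at E9.5 by 0.40 ± 0.11 (edgeR adjusted p = 0.00854), and E14 against E8 was 0.16 ± 0.11 and not called.

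The carnitine shuttle was higher at every step of the route in both later intervals, with Cpt1a far ahead. Cpt1a and Cpt1b encode the liver and muscle forms of the outer-membrane carnitine palmitoyltransferase, the committed step of mitochondrial entry. Cpt1a (chr19:3323301-3385732, plus strand) had 0.993, 0.730 and 1.24 CPM at E8, 1.22, 1.10 and 0.958 CPM at E8.5, 2.49, 4.55 and 5.13 CPM at E9.5, and 40.3, 42.0 and 43.2 CPM at E14. The E9.5 libraries were above all earlier ones and the E14 libraries were above all of those. Cpt1a was 3.72-fold higher at E9.5 than at E8.5 (log2 fold change 1.90 ± 0.25, edgeR adjusted p = 0.000289) and 10.3-fold higher at E14 than at E9.5 (3.36 ± 0.24, edgeR adjusted p = 6.34e-07). Over the whole span it was 42.3-fold higher (5.40 ± 0.27, edgeR adjusted p = 2.47e-08), the largest fold change of the 36 genes.

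Cpt1b (chr15:89416405-89425863, minus strand) had 52.9, 58.0 and 55.5 CPM at E8, 60.2, 47.2 and 43.6 CPM at E8.5, 86.1, 107 and 103 CPM at E9.5, and 201, 184 and 180 CPM at E14. It was separated from the stage before at both later steps. Cpt1b was higher by 0.97 ± 0.12 at E9.5 against E8.5 (edgeR adjusted p = 0.000197) and by 0.94 ± 0.12 at E14 against E9.5 (edgeR adjusted p = 4.6e-05). Its interval lies wholly inside that of Chkb, a choline kinase gene on the same strand. Chkb had 1.19 counts for each count of Cpt1b and was higher by 0.82 on the log2 scale in both comparisons. Strand could not separate reads of the pair. The sources used here do not give the counting tool, so these reads may not be told apart.

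The log2 ratio of Cpt1b to Cpt1a counts averaged 2.17 ± 0.13 at E14, against 4.66 ± 0.40 at E9.5, 5.51 ± 0.11 at E8.5 and 5.84 ± 0.43 at E8 (SD, n = 3 libraries each). By library it was 2.32, 2.13 and 2.06 at E14 and 5.11, 4.55 and 4.33 at E9.5. The fall between E9.5 and E14 was -2.49, with an exact two-sided permutation p of 0.1, the smallest possible, and 0.16 after adjustment over the 16 ratio tests. Every E14 library lay below every earlier library in this ratio.

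Slc25a20 encodes the carnitine-acylcarnitine carrier of the inner membrane. It had 11.6, 12.6 and 12.1 CPM at E8, 10.9, 9.37 and 11.7 CPM at E8.5, 16.5, 21.8 and 21.7 CPM at E9.5, and 34.7, 30.8 and 31.4 CPM at E14. Slc25a20 was higher by 0.91 ± 0.12 at E9.5 against E8.5 (edgeR adjusted p = 0.000225) and by 0.69 ± 0.11 at E14 against E9.5 (edgeR adjusted p = 0.000331), with no overlap between neighbouring groups at either step.

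Cpt2, the inner-membrane enzyme that returns the acyl group to coenzyme A, had 11.2, 12.7 and 11.7 CPM at E8, 13.1, 10.1 and 12.9 CPM at E8.5, 16.6, 21.5 and 21.2 CPM at E9.5, and 27.2, 25.5 and 24.6 CPM at E14. Its libraries were also separated at both later steps. Cpt2 was higher by 0.72 ± 0.12 at E9.5 against E8.5 (edgeR adjusted p = 0.00105) and by 0.38 ± 0.12 at E14 against E9.5 (edgeR adjusted p = 0.0186), where the second call was lost without E9.5 replicate 1 (0.0773), E14 replicate 1 (0.0894) or E14 replicate 2 (0.0606).

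**Figure D3:**
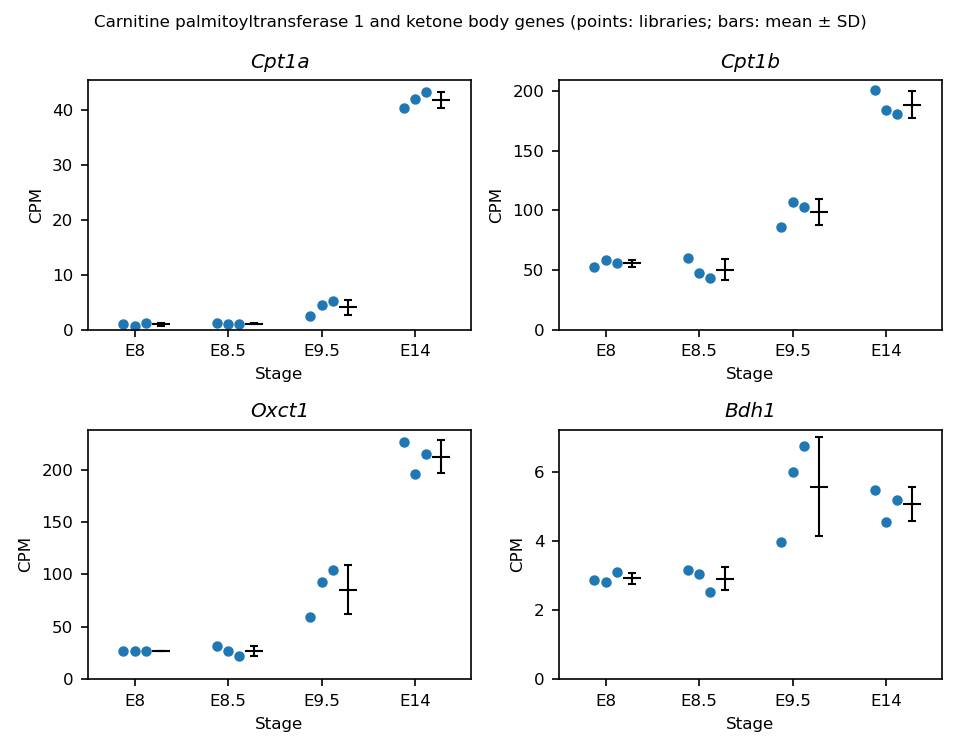
CPM of Cpt1a, Cpt1b, Oxct1 and Bdh1 in each library (points) by stage, with the mean and SD of the 3 libraries (bars) and a separate linear axis for each gene. Cpt1a climbs to a mean of 41.8 CPM at E14, while Bdh1 has means of 5.57 CPM at E9.5 and 5.07 CPM at E14 with overlapping libraries.

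The 4 acyl-CoA dehydrogenases open each turn of the β-oxidation cycle and take acyl chains of different length. Acadl, which acts on long chains, had 18.9, 17.2 and 18.4 CPM at E8, 24.6, 18.2 and 17.5 CPM at E8.5, 20.7, 25.3 and 27.2 CPM at E9.5, and 145, 137 and 129 CPM at E14. Its E8.5 and E9.5 libraries overlapped, and it was high at E14 alone. Acadl was 5.60-fold higher at E14 than at E9.5 (log2 fold change 2.49 ± 0.14, edgeR adjusted p = 7.23e-08), and E9.5 against E8.5 was 0.28 ± 0.13 and not called (edgeR adjusted p = 0.116). That earlier difference was called without E8.5 replicate 1 (0.45, edgeR adjusted p = 0.0101) or without E9.5 replicate 1 (0.38, edgeR adjusted p = 0.0440).

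The dehydrogenases of other chain lengths were called higher at both steps. Acadvl, for very long chains, was higher by 1.48 ± 0.13 at E14 against E9.5 and by 0.56 ± 0.12 at E9.5 against E8.5. Acadm, for medium chains, was higher by 1.11 ± 0.09 and 0.63 ± 0.09 in the same comparisons. Acads, for short chains, had the reverse order, 0.42 ± 0.12 at E14 against E9.5 and 0.91 ± 0.12 at E9.5 against E8.5, and its call at E14 against E9.5 was lost without E9.5 replicate 1 (edgeR adjusted p = 0.0558) or E14 replicate 1 (0.0641). The long-chain genes Acadl and Acadvl therefore had larger log2 fold changes at E14 against E9.5 than the medium-chain and short-chain genes, as measured by single fits without a test of the difference between genes.

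The remaining enzymes of the cycle were called higher at both later steps, except Hadh at E14 against E9.5. Hadha had 73.9, 74.8 and 74.0 CPM at E8, 71.5, 60.5 and 68.5 CPM at E8.5, 96.7, 122 and 122 CPM at E9.5, and 235, 219 and 217 CPM at E14. Hadhb had 52.1, 51.5 and 51.9 CPM at E8, 55.3, 43.9 and 47.7 CPM at E8.5, 82.7, 107 and 111 CPM at E9.5, and 173, 149 and 158 CPM at E14. Both subunit genes, whose intervals flank the first stretch printed above, stepped up without overlap at E9.5 and at E14. Over the whole span the log2 fold changes were 1.59 ± 0.10 for Hadha (edgeR adjusted p = 8.62e-08) and 1.63 ± 0.12 for Hadhb (edgeR adjusted p = 2.85e-07).

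The hydratase gene Echs1 was higher at E14 than at E8 by 1.12 ± 0.11 on the log2 scale, and the thiolase gene Acaa2 by 2.11 ± 0.12. Hadh, the dehydrogenase for shorter hydroxyacyl chains, differed less, by 0.51 ± 0.09 over the whole span, and was not called at E14 against E9.5 (0.18 ± 0.09, edgeR adjusted p = 0.0974). Its call at E9.5 against E8.5 (0.29 ± 0.09, edgeR adjusted p = 0.0199) was lost without E8.5 replicate 2 (0.0597), E9.5 replicate 2 (0.0641) or E9.5 replicate 3 (0.0687), and the difference at E14 against E9.5 was called only without E8.5 replicate 2 (0.0404) among the libraries left out. The auxiliary enzymes that handle unsaturated acyl chains were all called at both later steps. Eci1 had the largest whole-span change among them, 2.5 ± 0.14, followed by Ech1 with 2.08 ± 0.11, Eci2 with 1.46 ± 0.11 and Decr1 with 0.96 ± 0.10.

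Electrons from the dehydrogenases pass through the flavoprotein encoded by Etfa and Etfb to the dehydrogenase encoded by Etfdh. Etfdh had 28.5, 27.1 and 27.4 CPM at E8, 25.6, 22.9 and 26.3 CPM at E8.5, 38.4, 52.8 and 52.6 CPM at E9.5, and 94.4, 85 and 84.8 CPM at E14, and Etfdh was higher by 0.94 ± 0.11 and 0.88 ± 0.11 at the earlier and the later of the steps. Etfb was higher by 0.64 ± 0.12 at E9.5 against E8.5 and by 0.48 ± 0.12 at E14 against E9.5. Etfa was higher at E14 than at E9.5 by 0.78 ± 0.18 (edgeR adjusted p = 0.00305), while its E9.5 and E8.5 libraries overlapped and its difference of 0.45 ± 0.18 was not called (edgeR adjusted p = 0.0647). Etfa was called there with replicate 1 of E8.5 left out (0.67, edgeR adjusted p = 0.00680), and likewise with replicate 3 of E8.5 left out (0.25, edgeR adjusted p = 0.0377).

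Among the gates on fuel choice, Pdk4 changed most. It encodes a kinase that inhibits the pyruvate dehydrogenase complex and so spares glucose carbon. Pdk4 had 2.32, 2.57 and 2.24 CPM at E8, 3.14, 2.04 and 1.65 CPM at E8.5, 3.45, 4.83 and 5.16 CPM at E9.5, and 23.7, 23.0 and 21.5 CPM at E14. Its libraries at E14 were far above all others, and those at E9.5 did not overlap E8.5. Pdk4 was 5.07-fold higher at E14 than at E9.5 (log2 fold change 2.34 ± 0.21, edgeR adjusted p = 2.99e-06) and higher at E9.5 than at E8.5 by 0.98 ± 0.21 (edgeR adjusted p = 0.00414).

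Pdk2, another kinase of the same complex and not among the 36 genes, was higher at E14 than at E9.5 by 3.0 ± 0.18, and its CPM was 25.2, 26.5 and 26.3 at E14, against 2.57, 3.41 and 3.77 at E9.5. The log2 ratio of Pdk4 to Pdk2 averaged -0.20 ± 0.10 at E14, against 0.46 ± 0.04 at E9.5 and -0.03 ± 0.13 at E8 (SD, n = 3 libraries each). At E8.5 it averaged -0.27 ± 0.13, so the ratio was highest at E9.5. The difference between E14 and E9.5 was -0.65 with an exact two-sided permutation p of 0.1, the smallest possible, and 0.16 adjusted.

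Acacb makes malonyl-CoA at the mitochondrion, which inhibits carnitine palmitoyltransferase, and Mlycd encodes the decarboxylase that removes it. Acacb had 14.3, 15.5 and 15.5 CPM at E8, 20.7, 16.1 and 11 CPM at E8.5, 20.8, 23.5 and 24.1 CPM at E9.5, and 48.4, 52.1 and 49.9 CPM at E14. Mlycd had 6.85, 7.86 and 7.40 CPM at E8, 8.79, 6.61 and 6.53 CPM at E8.5, 9.03, 9.74 and 9.61 CPM at E9.5, and 13.9, 12.6 and 12.9 CPM at E14. Both genes, with opposite actions on malonyl-CoA, were highest at E14, by 1.14 ± 0.17 for Acacb (edgeR adjusted p = 0.000166) and 0.47 ± 0.11 for Mlycd (edgeR adjusted p = 0.00426) against E9.5.

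Their calls at E9.5 against E8.5 were less firm. Acacb was higher by 0.52 ± 0.17 (edgeR adjusted p = 0.0320), a call lost without E8.5 replicate 2 (0.0779), E9.5 replicate 2 (0.0879) or E9.5 replicate 3 (0.0986). Mlycd was higher by 0.37 ± 0.11 (edgeR adjusted p = 0.0235), a call lost without the same libraries (0.0852, 0.0783 and 0.0706). The log2 ratio of Acacb to Mlycd averaged 1.93 ± 0.12 at E14, against 1.27 ± 0.06 at E9.5 and 1.04 ± 0.05 at E8 (SD, n = 3 libraries each), with exact permutation p of 0.1 and 0.16 adjusted for E14 against either stage.

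Ucp3, a mitochondrial carrier of muscle, was close to the limit of detection, with 92 counts over the 12 libraries and at most 0.133 CPM. It was not called in any comparison, and a gene overlapping it, Gm10603, had 122 counts for each of its own.

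The ketone body enzymes split. Oxct1 encodes the succinyl-CoA transferase that commits ketone bodies to oxidation (chr15:4026383-4155344, plus strand). Oxct1 had 26.8, 27.2 and 26.8 CPM at E8, 32.0, 27.0 and 22.4 CPM at E8.5, 59.4, 92.5 and 104 CPM at E9.5, and 227, 196 and 215 CPM at E14. It stepped up at E9.5 and again at E14, without overlap. Oxct1 was 3.14-fold higher at E9.5 than at E8.5 (log2 fold change 1.65 ± 0.18, edgeR adjusted p = 0.000122) and 2.49-fold higher at E14 than at E9.5 (1.31 ± 0.18, edgeR adjusted p = 9.08e-05).

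Acat1, the mitochondrial thiolase that splits acetoacetyl-CoA, followed the same course. It had 20.3, 20.2 and 21.4 CPM at E8, 21.1, 17.0 and 18.7 CPM at E8.5, 34.8, 51.7 and 56.1 CPM at E9.5, and 186, 160 and 165 CPM at E14. Acat1 was higher by 1.33 ± 0.15 at E9.5 against E8.5 (edgeR adjusted p = 0.000128) and by 1.84 ± 0.15 at E14 against E9.5 (edgeR adjusted p = 1.53e-06).

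Bdh1, which interconverts hydroxybutyrate and acetoacetate, did not (chr16:31422280-31458901, plus strand). Bdh1 had 2.85, 2.80 and 3.10 CPM at E8, 3.14, 3.04 and 2.53 CPM at E8.5, 3.98, 6.0 and 6.74 CPM at E9.5, and 5.49, 4.54 and 5.18 CPM at E14. Its E14 libraries fell within the range of its E9.5 libraries. Bdh1 was higher by 0.94 ± 0.18 at E9.5 against E8.5 (edgeR adjusted p = 0.00188) and then differed by -0.14 ± 0.17 at E14 against E9.5 (edgeR adjusted p = 0.536), a value that was 0.017 without E9.5 replicate 3.

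The log2 fold changes at both later intervals were compared by their signed difference, E14 against E9.5 minus E9.5 against E8.5. The test was chosen after the data had been seen. A larger later step below means a more positive log2 fold change, and not a larger move in either direction. The steps last 4.5 days and 1 day, and the test compares whole steps and not rates. In this signed sense the later step was larger for 10 members and smaller for 1 by edgeR. It was larger for 17.9% and smaller for 18.7% of all genes. Such calls can include genes whose steps had opposite signs, as Acsl1 did (-0.48, then 0.75). The median difference over the members was 0.39 log2 units, beside 0.04 over all genes. The members with a larger later step were Ppara (3.83 ± 0.23), Acadl (2.21 ± 0.24), Cd36 (1.94 ± 0.25), Cpt1a (1.47 ± 0.41), Pdk4 (1.37 ± 0.36), Ppargc1a (1.32 ± 0.41), Acsl1 (1.24 ± 0.14), Acadvl (0.92 ± 0.22), Fabp3 (0.67 ± 0.19) and Acadm (0.49 ± 0.15), in log2 units. Bdh1 was the member with a smaller later step (-1.08 ± 0.30, edgeR adjusted p = 0.0138). For the other 25 members neither step was called the larger, which does not show that the steps were equal. Without replicate 3 of E8.5, 14 members had a larger later step and 1 a smaller one. The shares of all genes were not computed for that fit. The 4 members added were Ppargc1b (1.33 ± 0.35, edgeR adjusted p = 0.0124), Acacb (0.77 ± 0.17, edgeR adjusted p = 0.00276), Lpl (0.62 ± 0.21, edgeR adjusted p = 0.0296) and Etfa (0.50 ± 0.14, edgeR adjusted p = 0.0143). Without that replicate, Ppargc1b changed by -0.76 at the earlier step and by 0.58 at the later. Its later step was therefore more positive but not the larger move.

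The count was smallest without replicate 1 of E9.5, the library lowest of its stage for most members, which also had the lowest sums of epicardial markers (34.0 CPM, beside 78.0 and 107 CPM) and erythroid markers (4280 CPM, beside 8168 and 10884 CPM) of its stage. Without it 6 of the 36 members had a larger later step and 3 a smaller one. The 6 of 36 are no larger a share than the 17.9% of all genes called larger with all libraries. The share of all genes without that replicate was not computed. The calls of Fabp3 (edgeR adjusted p = 0.0798), Pdk4 (0.0545), Acadm (0.127) and Ppargc1a (0.0517) were lost without it. Ppargc1a and Acadm were the least stable, called with 6 and with 7 of the 12 libraries left out in turn, with edgeR adjusted p up to 0.113 and 0.127. Both calls were also lost without the filter on low counts (edgeR adjusted p = 0.0652 and 0.0765) and with only the compared stages fitted (0.0516 and 0.0570). Without E8.5 replicate 1, 2 members had a smaller later step. The median difference was 0.18 without E9.5 replicate 1 and 0.22 without E8.5 replicate 1. The call of Bdh1 was lost without E9.5 replicate 2 (0.0681) or E9.5 replicate 3 (0.0976). Ppara, Acadl, Cd36, Cpt1a, Acsl1 and Acadvl kept their call whichever of the 12 libraries was left out.

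**Figure D4:**
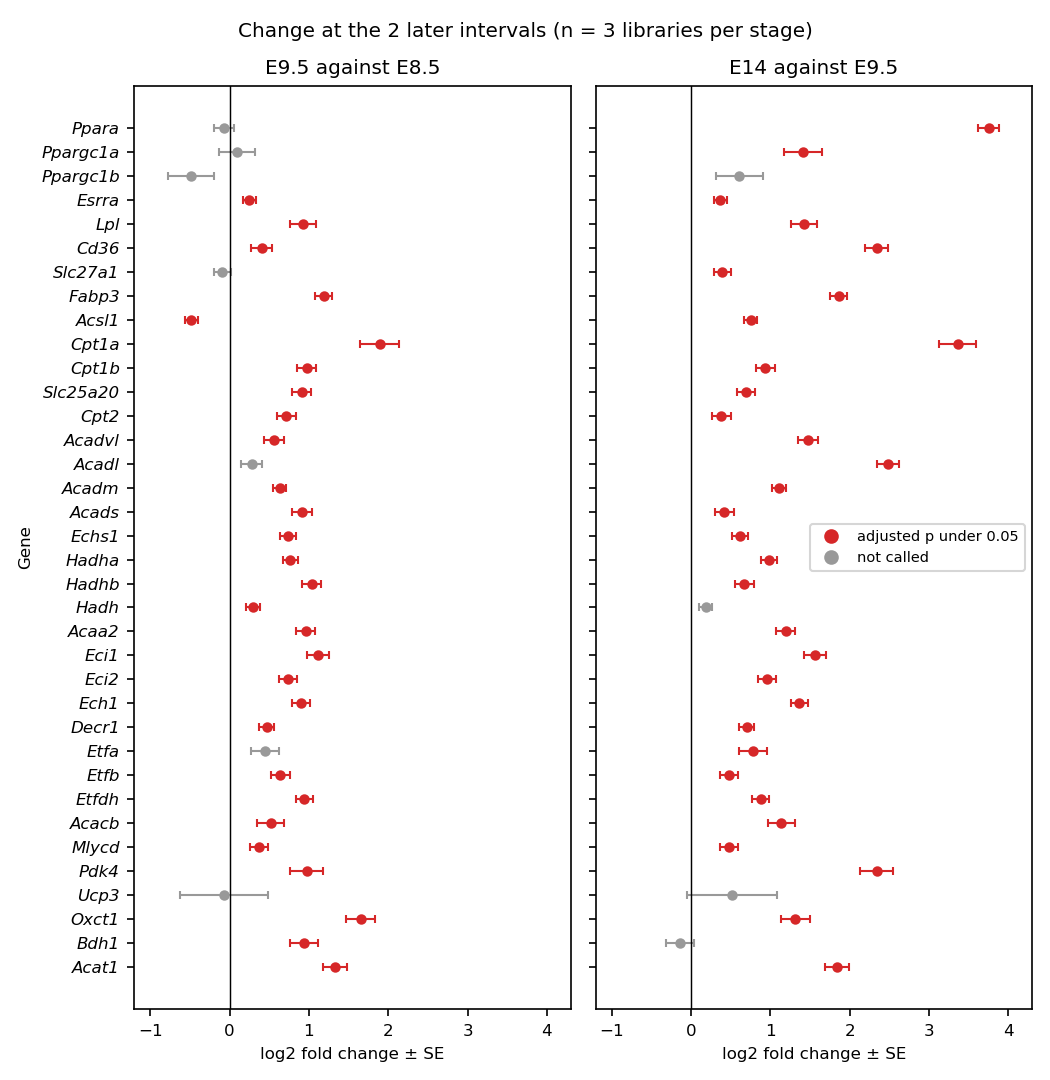
Log2 fold change with its SE for each of the 36 genes (by role, top to bottom) at E9.5 against E8.5 (left) and at E14 against E9.5 (right), with genes called at an adjusted p under 0.05 in red and others in grey. On the left 28 genes are called higher and Acsl1 lower, and on the right 32 are called higher, with Ppara and Cpt1a farthest to the right.

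The earliest comparison, E8.5 against E8, held few differences. Log2 fold changes ranged from -0.24 for Echs1 to 0.77 for Ppargc1b, and 3 members had an unadjusted p under 0.05: Ppara, Ppargc1b and Echs1. DESeq2 called 1 member, Ppargc1b, higher (log2 fold change 0.75, adjusted p = 0.0482). Without replicate 3 of E8.5, edgeR called 5 members higher, namely Ppargc1b (1.04 ± 0.21, adjusted p = 0.00641), Ppargc1a (0.76 ± 0.11, adjusted p = 0.000976), Etfa (0.54 ± 0.09, adjusted p = 0.00173), Ppara (0.40 ± 0.14, adjusted p = 0.0440) and Cd36 (0.27 ± 0.07, adjusted p = 0.0143). These 5 included 3 of the 4 regulators. The share of all genes called higher without that replicate was not computed, so this count has no matching background. Replicate 3 of E8.5 had lower values than both other libraries of its stage for each of the 5, and its visceral endoderm markers were high, as given above. The part of those markers in these values was not tested.

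For 7 members another gene overlapped the interval and held at least 0.5 counts for each count of the member: Esrra, Fabp3, Cpt1b, Acadvl, Eci2, Etfb and Ucp3. Besides Cpt1b, described above, the electron transfer gene Etfb lay almost wholly inside another gene, with 99.7% of its interval within that of Gm45233. Gm45233 had 1.01 counts for each count of Etfb. It was higher by 0.62 at E9.5 against E8.5 and by 0.48 at E14 against E9.5 (log2). In the same order, Gm16984 over Eci2 changed by 0.82 and 0.996, and Zcchc17 over Fabp3 by 0.43 and 0.49. Dvl2 over Acadvl changed by 0.18 (not called) and 0.66, and Trmt112 over Esrra by 0.28 and -0.29. Gm10603 over Ucp3 changed by -0.19 and -0.18, neither called. The extent of these overlaps differed, with 0.674% of Esrra, 1.18% of Fabp3, 13.8% of Ucp3, 25.7% of Eci2 and 40.5% of Acadvl covered. In each of these the overlapping gene lay on the opposite strand. Among the 29 members without such a neighbour, 22 were higher and 1 lower at E9.5 against E8.5, 26 higher and 0 lower at E14 against E9.5, and 28 higher and 0 lower at E14 against E8.

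Other genes of the pathway, taken as lists by function, gave the setting. Of all genes tested, 18.4% were called higher and 18.5% lower at E9.5 against E8.5. At E14 against E9.5 these shares were 25.4% and 24.6%. Of 14 genes of peroxisomal oxidation, 9 were higher and 1 lower at E14 against E9.5, with a median log2 fold change of 0.41, beside 0.95 for the 36 genes and 0.01 for all genes. The peroxisomal transporter gene Abcd2 was lower, by -1.17 ± 0.14 on the log2 scale. Of 20 further genes of lipid uptake, lipolysis and activation, 12 were higher and 2 lower at E14 against E9.5. Fabp4, a fatty acid binding protein of adipocytes, macrophages and capillary endothelium, had 50.3, 47.0 and 49.7 CPM at E14, against 0.538, 0.193 and 0.137 CPM at E9.5. Gpihbp1, which anchors lipoprotein lipase on capillary endothelium, had 4.08, 4.23 and 4.42 CPM at E14, against 0.157, 0.0566 and 0.0114 CPM at E9.5. Of 13 other mitochondrial acyl-CoA enzymes tested, 9 were higher and 2 lower at E14 against E9.5.

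Genes of fatty acid synthesis went the other way. None of 8 was higher by edgeR at E9.5 against E8.5 or at E14 against E9.5, while 3 and 6 were lower. Fasn, the fatty acid synthase gene, was lower at E14 than at E9.5 by -0.95 ± 0.09, Scd1, a desaturase gene, by -1.16 ± 0.18, and Acaca, the cytosolic acetyl-CoA carboxylase gene, by -0.63 ± 0.09. The summed level of the 8 genes was 644 to 665 CPM in the E14 libraries, against 831 to 923 CPM at E9.5, without overlap. Acaca and its relative Acacb, one of the 36 genes, therefore moved in opposite directions at E14 against E9.5. Of 11 genes of the pyruvate dehydrogenase complex, its kinases, phosphatases and pyruvate carriers, 8 were higher and 2 lower at E14 against E9.5.

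Among 17 nuclear receptors and partners of oxidative metabolism, 4 were higher and 7 lower at E9.5 against E8.5, and 9 were higher and 3 lower at E14 against E9.5. Perm1, a muscle regulator of oxidative genes that acts with the coactivators, had 6.06, 6.17 and 6.92 CPM at E14, against 0.787, 0.759 and 0.639 CPM at E9.5. Like Ppara it was low in all libraries before E14, at most 0.860 CPM. Esrrg, a receptor related to Esrra, was lower at E9.5 than at E8.5 by -1.0 ± 0.26 and was not called at E14 against E9.5 (0.24 ± 0.26).

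**Figure D5:**
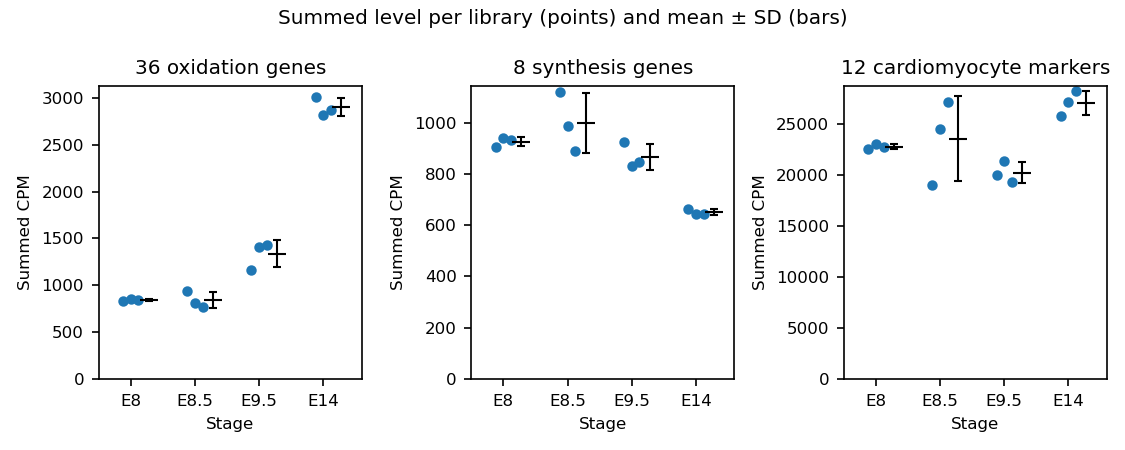
Summed CPM per library (points) by stage, with the mean and SD of 3 libraries (bars), for the 36 oxidation genes, 8 fatty acid synthesis genes and 12 cardiomyocyte markers, each on its own axis from 0. The oxidation sum is 2821 to 3014 CPM at E14 against 1168 to 1434 CPM at E9.5, the synthesis sum is lowest at E14, and the marker sum differs less between stages.

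Cell type markers moved as well, and the same shares of all genes stand beside their counts. At E9.5 against E8.5, all 10 erythroid markers were higher, with sums of 4280 to 10884 CPM at E9.5 and 716 to 1240 CPM at E8.5. All 5 epicardial markers were higher too, with sums of 34.0 to 107 CPM at E9.5 and 6.56 to 14.4 CPM at E8.5. Of 7 fibroblast and matrix markers 5 were higher and 0 lower, with sums of 268 to 440 CPM at E9.5 and 145 to 186 CPM at E8.5. Of 12 cardiomyocyte markers 6 were higher and 2 lower, with overlapping sums of 19258 to 21320 CPM at E9.5 and 18978 to 27174 CPM at E8.5. All 7 markers of foregut endoderm and epithelium were lower, with sums of 7.23 to 8.88 CPM at E9.5 and 18.0 to 55.1 CPM at E8.5, and 9 of 12 markers of visceral endoderm and liver were lower and 1 higher. The visceral endoderm and liver sums were 12.9 to 147 CPM at E9.5 and 61.3 to 1760 CPM at E8.5, where the highest was that of replicate 3.

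At the later step the lists differed again. Of 12 cardiomyocyte markers 6 were higher and 2 lower at E14 against E9.5, with a sum of 25781 to 28190 CPM at E14, against 19258 to 21320 CPM at E9.5, and all 12 were detected in every library. Of 8 markers of endothelium and endocardium 7 were higher and 0 lower, with sums of 854 to 890 CPM at E14 and 487 to 548 CPM at E9.5. Of 7 fibroblast and matrix markers 6 were higher and 0 lower, with sums of 2201 to 2261 CPM at E14 and 268 to 440 CPM at E9.5. Of 6 macrophage and leukocyte markers 4 were higher and 0 lower. Among them, Cx3cr1 overlapped Xirp1, which had 0.655 counts for each of its own, and Csf1r overlapped Hmgxb3, which had 5.53. Reads of these genes may not be told apart, and some markers of other lists also overlapped other genes. Of 5 epicardial markers 2 were higher and 0 lower, with sums of 156 to 172 CPM at E14 and 34.0 to 107 CPM at E9.5. Of 5 markers of smooth muscle and pericytes 2 were higher and 3 lower, with sums of 692 to 750.4 CPM at E14 and 1925 to 2207 CPM at E9.5. Erythroid markers summed to 10624 to 35407 CPM at E14 and 4280 to 10884 CPM at E9.5, with 3 of 10 higher and 5 lower. The part of these cell types in the changes of the oxidation genes at either step was not tested. Adipocyte markers were near 0, with 5 genes summing to at most 0.182 CPM at E14 and 1.08 CPM in any library, and the liver marker Alb did not exceed 4.66 CPM.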

How the data were processed

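The authors deposited counts per gene interval for 12 libraries of mouse cardiogenic region, 3 at each of 4 stages. STAR 2.5.0 and Cufflinks 2.2.1 are named, per the submitters' processing notes, with the builds GRCm38, mm10 and hg38 and no roles. For the counting tool, strand, introns and annotation release the sources used here give nothing, so overlapping genes are treated as uncertain. Intervals are on GRCm38.

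Counts were scaled by TMM factors and filtered with filterByExpr, which left 28846 genes. They were fitted with edgeR 4.0.16 (robust quasi-likelihood, all 12 libraries, stage means, R 4.3.3), with Benjamini-Hochberg adjustment over those genes. The fit was tested on simulated counts. CPM are scaled counts per 1000000, and errors are SD over 3 libraries or SE of the fit. Log2 ratios of counts, with 0.5 added to both, were compared by exact two-sided permutation tests, 16 in all. No replicates of a stage were alike within counting noise, and precision at these depths covers counting error only.

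Alternatives were DESeq2 1.42.0, RLE and upper-quartile factors, no filter, only the stages compared, a replicate block, small structural RNAs left out, an adjustment for interval length and each library left out. Values in every library were planned for the regulators, the carnitine shuttle, Oxct1, Bdh1 and the 4 called members with the largest change in each direction of each comparison. Those of Lpl, Hadha, Hadhb, Etfdh, Acacb and Mlycd, and the other genes given by name, were added after values were seen, as was the test of the later against the earlier step. Members and lists were chosen with earlier results of these data known. Promoter windows came from RefSeq (GRCm38.p6) for 30 members, and 6 had none. Some genes of the wider lists are not reported here.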

Additional observations from a re-analysis of the deposited data

How the results depend on the processing

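Counts were fewest for Ucp3, with 3 to 12 in each library before E14, and for Ppara, with 48 to 85. Members called higher at E8.5 against E8 numbered 0 by edgeR, 1 by DESeq2 and 0 to 5 as each library was left out. Members called lower at E9.5 against E8.5 numbered 1, and 1 to 2 with a library left out. Members called higher numbered 23 to 30 at E9.5 against E8.5, 30 to 34 at E14 against E9.5 and 32 to 34 at E14 against E8 with a library left out. The shares of all genes were not computed for these alternatives. For the signed difference, later step minus earlier step, 10 members were called higher (6 to 14 with a library left out) and 1 lower (0 to 3). That last count was 2 with small structural RNAs left out and 2 with the adjustment for interval length, which also took the median difference to 0.23, while it was 0.18 to 0.43 with a library left out. The log2 ratio of Acacb to Mlycd, E8.5 against E8, was 0.05 and ran from -0.042 to 0.22 with a library left out. Over all 180 results of single members (36 genes in 5 comparisons), 27 changed sign under some alternative, 16 of them at E8.5 against E8, and 0 of these were called either with all libraries or under that alternative. Those whose values are given in the text include Ppargc1a at E9.5 against E8.5 (-0.16 to 0.28 with a library left out), Ppara at E9.5 against E8.5 (0.13 with the length adjustment) and Bdh1 at E14 against E9.5 (-0.33 to 0.017 with a library left out).

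Of 3595 values of these 180 results under the alternatives, 77 had another sign, 59 lost a call and 36 gained one. With only the compared stages fitted, 23 members were called higher at E9.5 against E8.5. The length adjustment ended the calls of Esrra at E9.5 against E8.5 (adjusted p = 0.108), Acsl1 at E14 against E8 (0.170), and Cpt1a (0.0590) and Ppargc1a (0.112) in the comparison of steps, all by edgeR. Replicate numbers did not pair the libraries: over 18 same-numbered pairs the correlation of deviations ran from -0.08 to 0.13, and 4 of 12 libraries correlated best with their own number. With the replicate block, 0, 27, 32 and 34 members were called higher in the 4 comparisons, where the lost call was that of Esrra at E9.5 against E8.5 (edgeR adjusted p = 0.0502). The causes of these changes were not tested.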
